A study of Homo sapiens with 15 samples.

Results

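The comparison described here sets WI-38 fibroblasts at 30 population doublings (PD30) against the same line at 45 population doublings (PD45). WI-38 is an established human line grown from fetal lung, whose fibroblasts stop dividing after a finite lifespan, and the series describes its later cells as senescent. RNA sequencing gave 15 libraries in 5 groups, and the 6 libraries used for this comparison are 3 of the PD30 control and 3 of the PD45 control. Both groups carry DMSO and the lipofection reagent lipo3000, and the PD45 control also carries NC, read as a negative-control siRNA, which is absent from the PD30 labels. No value below can tell apart passage and NC. Nothing in the labels states that replicate libraries are separate cultures, so errors and p-values reflect the spread of these 6 libraries, possibly a technical one.

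The members are all 2845 genes of the authors' deposited table for this comparison, of 4872 genes in any of the 4 deposited tables. The table holds genes that the authors selected on these libraries at a fold change of at least 1.5 and an adjusted p under 0.05. From their adjusted p-values, the authors tested 18575 genes, so that 15.3% were listed, 8.24% as higher and 7.07% as lower at PD30. Since selection used this contrast, no p-value below is independent evidence of a difference. The limma re-test of the deposited signals only describes how well the 3 libraries of each group separate. It covered the 2258 listed genes whose mean signal over the 6 libraries was at least 1, and 2197 of them (97.3%) passed at an adjusted p under 0.05 in the authors' direction, 1175 (52.0%) as higher and 1022 (45.3%) as lower at PD30. These shares are the background for every count of passing genes in a list below. Genes outside the table were not used here, and a gene that is not listed is not shown to be unchanged.

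Of the 2845 listed genes, 1531 (53.8%) were higher and 1314 (46.2%) lower at PD30. The 3 libraries of one group lay wholly above those of the other in 2662 genes (93.6%). Most genes named below were picked for such separation, so their separation is no result about them. Among the 2430 genes with a group mean signal of at least 1, 715 were at least 2-fold higher at PD30 and 456 at least 2-fold lower, and 62 and 56 were at least 8-fold higher and lower. Across genes, the log2(signal + 1) values of 2 libraries correlated at 0.989 to 0.993 within a group and at 0.881 to 0.902 between groups, as a description over listed genes. All 7 listed genes that mitochondrial DNA encodes, MT-CO1 among them, were lower at PD30, by 1.54-fold to 1.78-fold, with summed signals of 16261, 16860 and 18288 in the PD30 libraries and 29477, 30585 and 21491 in the PD45 libraries. The ribosomal protein genes RPS2, RPL3 and RPS9, which have pseudogene copies in the genome, were 1.53-fold, 1.54-fold and 1.57-fold higher at PD30. The part of this shift in the other results was not tested. The signal is a normalized expression value whose unit is not given in the sources used here, so read depth is unknown and levels are compared only within a gene. The genes with the smallest fold changes in the authors' deposited table were LTBP4 on the higher side, at a deposited fold of 1.5, and ITGA1 on the lower side, at 0.667. The genes just outside are not in the table. Folds given below for named genes are ratios of mean signals, which can differ from the deposited folds. The signal ratio of LTBP4 was 1.80. In 3 listed genes, the mean signals and the deposited fold did not share a direction.

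Lung fibroblasts build and remodel the matrix, and they signal to neighbouring cells through growth factors, cytokines and proteases. Cells that reach the end of their replicative life stay metabolically active and are known for a changed secretion of such factors, the senescence-associated secretory phenotype, and for enlarged lysosomes. Amino acid and one-carbon enzymes feed the nucleotide and protein synthesis of growing cells. The sections below follow the genes from the secreted proteins to surface receptors, signalling, metabolism and structural genes.

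**Figure D1:**
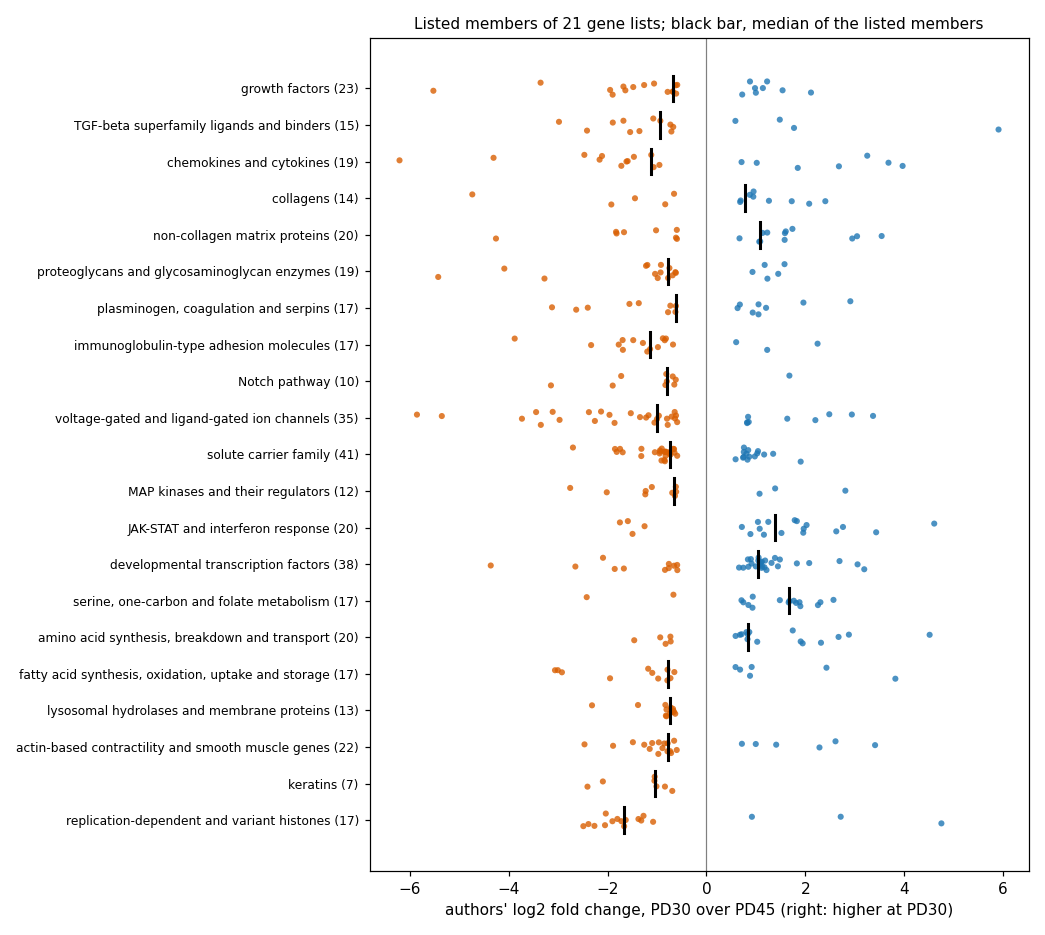
Log2 fold change of PD30 over PD45 from the authors' deposited table (horizontal axis) for the listed members of 21 gene lists (rows, with the number listed). Each point is 1 gene, blue if higher and orange if lower at PD30, and the black bar is the median of the listed members. All 13 lysosomal members and all 7 keratins lie on the lower side, and 15 of 17 serine and one-carbon members on the higher side.

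Proteins that act on coagulation and plasminogen divided. Of 39 symbols in this list 17 were listed, 8 higher and 9 lower at PD30. TFPI2, a secreted inhibitor of serine proteases, had signals of 564, 586 and 574 in the PD30 libraries and 72.5, 67.6 and 91.9 in the PD45 libraries. The groups were far apart, and the mean of 575 ± 11 (SD, n = 3) was 7.43-fold that at PD45 (limma adjusted p = 7.53e-08). PLAT, the tissue plasminogen activator, had 297, 256 and 282 at PD30 against 131, 133 and 138 at PD45. Its groups did not overlap, and PLAT was 2.08-fold higher at PD30 (limma adjusted p = 2.11e-06). SERPINE2, which inhibits thrombin and plasminogen activators, was 2.09-fold higher at PD30, while SERPINB2, an inhibitor of plasminogen activators, was 2.61-fold lower. SERPINB7 had a mean of 8.23 ± 0.49 at PD30 and 43.1 ± 1.46 at PD45. A2M, the broad protease trap alpha-2-macroglobulin, had 10.9, 11.1 and 13.7 at PD30 and 98.5, 78.0 and 51.9 at PD45. The PD45 libraries of A2M were spread widely around their mean of 76.1 ± 23.4, and the lowest of them still lay above every PD30 library. F10, coagulation factor X, was 3.75-fold higher at PD30.

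Growth factors were more often lower than higher at PD30, with 8 higher and 15 lower of 23 listed among 64 symbols. The median log2 ratio of mean signals over these 23 was -0.63, against 0.59 over all listed genes. Every listed gene had passed a deposited fold change of at least 1.5, so few ratios lie near equality. In each list, the sign of the median therefore mostly follows the direction with more members, and the selection usually sets a floor to its size. The gap between a list's median and that of all listed genes is no measured shift. The higher members included HGF, the ligand of the MET receptor, with 165, 164 and 157 at PD30 and 60.7, 65.1 and 62.8 at PD45. MDK and PTN, the heparin-binding factors midkine and pleiotrophin, were 2.36-fold and 1.97-fold higher. No library of one group reached the other in any of the 3 (limma adjusted p from 2.64e-07 for HGF to 2.4e-06 for PTN). On the lower side, HBEGF, a membrane-shed ligand of the EGF receptor, had 3.99, 4.05 and 4.26 at PD30 and 11.8, 11.6 and 11 at PD45. EDN1, which encodes the vasoconstrictor endothelin-1, was 3.84-fold lower, and STC1, a secreted glycoprotein hormone of calcium and phosphate handling, was 3.15-fold lower. STC1 varied most among the PD45 libraries, which gave 80.6, 62.9 and 47.0, and its PD30 libraries stayed between 18.4 and 21.6.

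Ligands of the TGF-beta superfamily with their extracellular binders gave 4 higher and 11 lower of 15 listed, of 41 symbols, with a median log2 ratio of -0.79. The bone morphogenetic protein genes diverged. BMP4 had 35.4, 34.9 and 32.6 at PD30 and 8.38, 11.2 and 10.6 at PD45, and BMP2 had 6.22, 5.83 and 7.85 against 24.9, 17.6 and 15.3. BMP4 was thus 3.42-fold higher and BMP2 2.90-fold lower at PD30, without overlap of the groups (limma adjusted p = 1.16e-06 and 5.42e-05). GDF6, a relative of the BMPs that acts in joint formation, had 3.35, 2.97 and 2.98 at PD30 and 24.7, 24.0 and 25.7 at PD45. That 8-fold difference was carried evenly by the 3 libraries of each group (limma adjusted p = 8.06e-08). GREM1, the secreted BMP antagonist gremlin, which was counted with the growth factors instead, was 1.62-fold higher at PD30. GDF15, a stress-induced member of the family, had a mean of 41.2 ± 4.13 at PD30 and 108 ± 15.5 at PD45.

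The insulin-like growth factor axis held 2 higher and 6 lower of 8 listed, of 23 symbols, and its binding proteins did not move as one. IGFBP6 and IGFBP3, which hold IGFs away from their receptor, were 2.28-fold and 2.10-fold higher at PD30. IGFBP6 had 720, 697 and 641 at PD30 against 279, 285 and 339 at PD45. IGFBP7 and IGFBP2 were lower, by 3.50-fold and 2.18-fold, and IGF2 itself had 1.84, 0.84 and 1.13 at PD30 and 13.8, 8.95 and 6.47 at PD45. The IGF2 values were spread widely within each group, and the groups lay apart (limma adjusted p = 2.88e-05). Of the WNT genes and their modulators, 8 were higher and 5 lower of 13 listed, of 54 symbols, but of the 8 re-tested 3 passed as higher and 5 as lower. WNT5A, a ligand of the non-canonical branch, had a mean of 95.1 ± 5.22 at PD30 and 48.9 ± 7.14 at PD45, and WNT16 had 18.5 ± 0.646 and 43.9 ± 5.01. DKK2, which encodes a secreted modulator of WNT co-receptors, was 11.4-fold lower at PD30, from 6.24 ± 0.686 at PD45.

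Chemokines and cytokines gave 7 higher and 12 lower of 19 listed, of 57 symbols, with a median log2 ratio of -1.22. Only 7 of the 19 had a group mean signal of at least 5, so that most of that median rests on low signals. CXCL12, the ligand of CXCR4, had 12.2, 10.9 and 11.4 at PD30 and 3.58, 3.23 and 2.67 at PD45. CCL2, a monocyte attractant, had 226, 211 and 226 at PD30 and 108, 146 and 156 at PD45. TSLP, an epithelial and stromal cytokine, was 2.02-fold higher at PD30. These 3 genes were higher in every PD30 library than in any PD45 library. IL32, a proinflammatory cytokine, was 2.21-fold lower at PD30, and TNFSF4, the OX40 ligand, was 4.51-fold lower, at 1.79 ± 0.244 against 8.08 ± 0.774.

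Matrix genes held contrasts within each class. Collagen genes gave 9 higher and 5 lower of 14 listed, of 41 symbols, with a median log2 ratio of 0.78. COL4A1, a basement membrane collagen chain, had 238, 204 and 240 at PD30 and 135, 113 and 96.4 at PD45, and COL7A1, the anchoring fibril collagen, was 1.79-fold higher. COL13A1, a transmembrane collagen, was 1.72-fold lower at PD30. COL10A1, the hypertrophic cartilage collagen, had 0.93, 0.27 and 3.04 at PD30 and 11.9, 5.4 and 4.31 at PD45, a wide spread within both groups. The enzymes that modify and cross-link collagen were 5 higher and 5 lower of 10 listed, of 27 symbols. P4HA3, a prolyl 4-hydroxylase subunit, was 4.35-fold higher at PD30, while P3H2, a prolyl 3-hydroxylase, was 3.88-fold lower. TGM2, the tissue transglutaminase, had 90.4, 77.1 and 87.3 at PD30 and 399, 355 and 288 at PD45, and LOXL4, a lysyl oxidase, was 2.62-fold lower at PD30. All of these were apart in every library (limma adjusted p from 1.51e-07 for P3H2 to 0.00235 for COL10A1).

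Among non-collagen matrix proteins 12 were higher and 8 lower of 20 listed, of 69 symbols. Outside this list and its counts, SPON2, a secreted spondin that also binds bacterial surfaces, had 116, 99.7 and 114 at PD30 and 13.2, 14 and 14.7 at PD45. It was 7.87-fold higher at PD30 (limma adjusted p = 3.5e-08). CTHRC1, a secreted triple-helix protein of remodelling tissue, MATN2, a filament-forming matrilin, and POSTN, periostin, were 2.17-fold, 3.12-fold and 2.04-fold higher. Also in the list, LAMA1, a laminin chain, was 3.05-fold lower, and EDIL3, an integrin-binding matrix protein, was 2.06-fold lower at PD30. Proteoglycans and the enzymes of their chains were 5 higher and 14 lower of 19 listed, of 64 symbols, with a median log2 ratio of -0.83. SRGN, the core protein serglycin of secretory granules, had 2.32, 2.05 and 2.60 at PD30 and 22.1, 20.8 and 25.8 at PD45. SULF2, which removes sulfate groups from heparan sulfate, was 9.41-fold lower at PD30, and XYLT1, which starts glycosaminoglycan chains, was 2.23-fold lower. SDC1, the cell surface proteoglycan syndecan-1, was 2.65-fold higher.

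Matrix proteases and their inhibitors gave 6 higher and 9 lower of 15 listed, of 57 symbols. The metalloproteinase gene MMP17 and the aggrecanase-related ADAMTS8 were 1.71-fold and 1.61-fold higher at PD30. CTSK, the collagen-degrading cathepsin K, had 21.7, 21.6 and 24.3 at PD30 and 43.5, 35.6 and 39.6 at PD45. The membrane peptidases MME (neprilysin) and DPP4 were 2.19-fold and 1.70-fold lower, and ADAM33 was 2.05-fold lower. CST1, a secreted inhibitor of cysteine proteases that is not in this list, had 9.61, 7.18 and 7.30 at PD30 and 66.5, 66.5 and 41.4 at PD45. No PD30 library of CST1 came near a PD45 library (limma adjusted p = 1.32e-06).

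**Figure D2:**
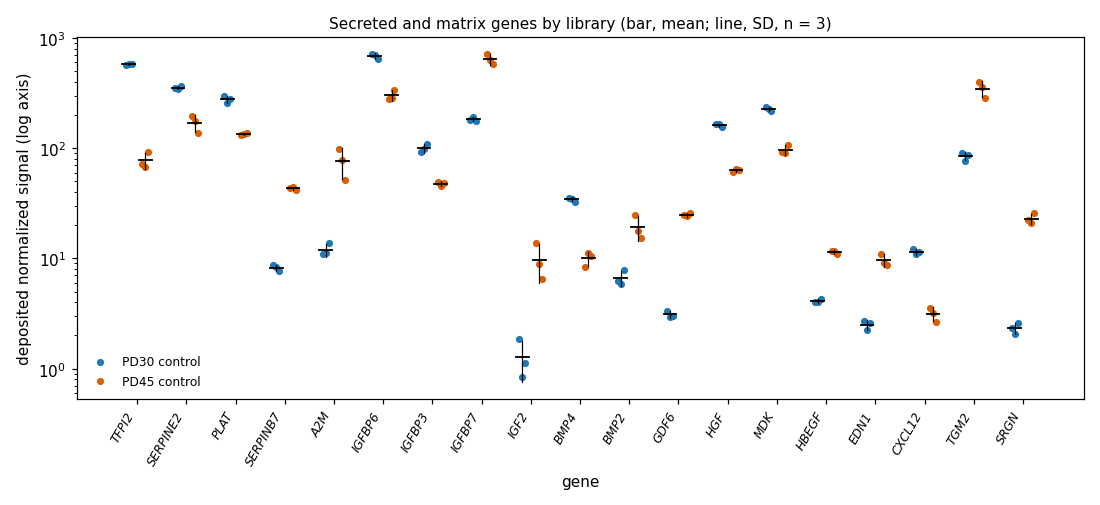
Deposited normalized signal (vertical log axis) of 19 secreted and matrix genes in each library, blue for the PD30 control and orange for the PD45 control. Bars are means and lines SD (n = 3 libraries a group). Of the 19 genes, 9 are higher and 10 lower at PD30, and TFPI2 stands at 575 against 77.3. The groups lie apart in all 19, which the naming rule required of all but PLAT, and in 93.6% of all listed genes.

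At the cell surface, receptor tyrosine kinases were divided evenly, with 5 higher and 5 lower of 10 listed, of 48 symbols. TEK, the angiopoietin receptor best known from endothelial cells, had 31.4, 28.8 and 29 at PD30 and 6.22, 7.41 and 8.53 at PD45. FGFR4, a fibroblast growth factor receptor, had 17.4, 12.4 and 14 against 3.49, 3.76 and 5.68. TEK was 4.03-fold and FGFR4 3.39-fold higher at PD30 (limma adjusted p = 7.23e-07 and 2.84e-05). FLT1, a VEGF receptor, was 5.52-fold lower, KIT, the stem cell factor receptor, 2.40-fold lower and EPHA2, an ephrin receptor, 2.11-fold lower at PD30.

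Adhesion molecules were mostly lower at PD30. Integrins and focal adhesion genes gave 4 higher and 8 lower of 12 listed, of 49 symbols. ITGA4, the alpha chain of the VCAM1 receptor, had 10.1, 12.3 and 11.4 at PD30 and 5.00, 4.51 and 4.70 at PD45. ITGA8, a fibronectin and nephronectin receptor chain, and ITGA11, a collagen receptor chain, were 4.72-fold and 2.31-fold lower at PD30. Immunoglobulin-type adhesion molecules gave 3 higher and 14 lower of 17 listed, of 59 symbols, and 15 of them were re-tested, 3 passing as higher and 12 as lower. VCAM1 and ICAM1, both leukocyte adhesion molecules, ran in opposite directions. VCAM1 had 5.85, 5.78 and 5.87 at PD30 and 0.68, 1.37 and 1.70 at PD45, and ICAM1 had 5.19, 4.57 and 6.01 against 16.2, 14.8 and 14.8. PDCD1LG2, the PD-1 ligand PD-L2, was 3.16-fold lower at PD30, PVR, the poliovirus receptor, 1.84-fold lower, and LRRN3, a leucine-rich repeat neuronal protein, 5.10-fold lower. Of the junction proteins, CLDN1, the tight junction claudin-1, had 5.49, 5.03 and 6.30 at PD30 and 46.3, 46.2 and 43.8 at PD45. That 8.10-fold difference had a limma adjusted p of 5.9e-08. DSP, the desmosomal desmoplakin, was 3.13-fold lower at PD30, whereas PCDH18, a protocadherin outside the clusters, was 2.35-fold higher.

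Guidance cues and the Notch pathway also held more lower than higher genes, 12 of 20 (of 50 symbols) and 9 of 10 (of 31 symbols). SEMA6A, a transmembrane semaphorin, was 6.66-fold lower at PD30, ROBO2, a slit receptor, 3.74-fold lower, and RGMB, a BMP co-receptor, 2.19-fold lower. Of the Notch genes, the ligand DLL4 had 3.96, 3.17 and 4.44 at PD30 and 15.9, 11.3 and 11.8 at PD45. The receptors NOTCH2 and NOTCH3 were 1.74-fold and 1.59-fold lower, and the ligand gene JAG1 1.58-fold lower. All 8 Notch genes that were re-tested passed as lower at PD30, as 45.3% of all re-tested genes did. Their limma adjusted p ran from 9.09e-06 for EGFL7, a secreted Notch modulator, to 0.00648 for NOTCH1. NOTCH4, the exception, had signals under 1 and was not re-tested.

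G protein-coupled receptors were 16 higher and 10 lower of 26 listed, of 117 symbols. Within the prostaglandin E2 receptors, PTGER2 (EP2) had 56.3, 60.6 and 54.1 at PD30 and 19.7, 22.5 and 23.7 at PD45, while PTGER4 (EP4) had 3.91, 4.01 and 4.49 against 12.3, 8.67 and 6.29. The 2 receptors, which both raise cyclic AMP, differed in opposite directions, by 2.60-fold and 2.19-fold. BDKRB2, the bradykinin B2 receptor, was 1.68-fold higher at PD30. Cytokine, interleukin and TNF-family receptors gave 8 higher and 14 lower of 22 listed, of 67 symbols. TNFRSF19 and TNFRSF21, both TNF receptor family members, were 2.37-fold and 2.56-fold higher at PD30, and IL7R, the interleukin-7 receptor chain, was 2.43-fold lower.

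Antigen presentation and immune recognition genes were 4 higher and 5 lower of 9 listed, of 34 symbols. B2M, the light chain shared by class I molecules, had 2153, 2326 and 2484 at PD30 and 3696, 3510 and 3736 at PD45. TAP1 and TAPBP, which load peptides onto class I, were each 1.73-fold lower at PD30. MICA and ULBP2, stress ligands of the NKG2D receptor of natural killer cells, were 1.94-fold and 2.08-fold lower, with ULBP2 uncertain because its family holds near-identical copies. The class II accessory gene HLA-DMA was 1.66-fold higher, also from a family of close copies. RAET1G, another NKG2D ligand gene, and PSMB9, a subunit of the immunoproteasome, were likewise among the 4 higher genes. As listed, neither group of genes was lower throughout. RAET1G is of the same family as ULBP2, so its direction is uncertain in the same way.

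Ion channels were mostly lower at PD30, with 9 higher and 26 lower of 35 listed, of 127 symbols. Many were faint: 9 of the 35 had a group mean of at least 5, and the median log2 ratio of -0.81 over all 35 was -0.55 over those 9. TRPV2, a calcium-permeable channel, had 46.6, 36.2 and 39.6 at PD30 and 75.9, 71.6 and 65.9 at PD45. TRPA1, an irritant-sensing channel, was 1.67-fold higher and ANO4, of the anoctamin family, 1.78-fold higher at PD30. Solute carriers gave 15 higher and 26 lower of 41 listed, of 368 symbols. SLC20A2, a phosphate importer, had 41.6, 36.9 and 37.7 at PD30 and 142, 132 and 125 at PD45 (3.43-fold lower at PD30; limma adjusted p = 1.85e-07). SLC17A9, which loads ATP into vesicles, was 6.58-fold lower. The amino acid carriers among the higher ones are described with metabolism.

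**Figure D3:**
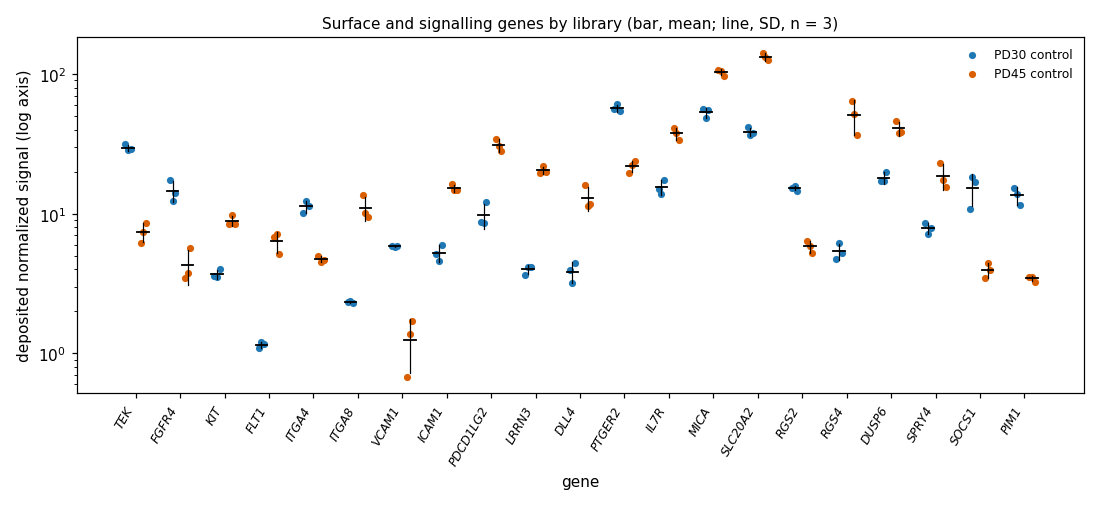
Deposited normalized signal (vertical log axis) of 21 surface and signalling genes in each library, blue for the PD30 control and orange for the PD45 control, with means as bars and SD as lines (n = 3 libraries a group). Of the 21, 8 are higher and 13 lower at PD30, and the members of a pair such as VCAM1 and ICAM1 or RGS2 and RGS4 differ in opposite directions. The groups lie apart in all 21, which the naming rule required, and in 93.6% of all listed genes.

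Among signalling genes, the regulators of G protein signalling moved apart. RGS4 had 4.76, 6.15 and 5.23 at PD30 and 64.6, 51.5 and 36.3 at PD45, and RGS5 had 2.29, 1.58 and 0.72 against 11.1, 10.8 and 7.58. RGS2, of the same family, had 15.3, 15.8 and 14.7 at PD30 and 6.36, 5.92 and 5.22 at PD45. RGS4 was 9.44-fold and RGS5 6.41-fold lower at PD30, and RGS2 2.61-fold higher (limma adjusted p = 7.33e-07, 2.47e-05 and 5.25e-06). PLCB4, a phospholipase C that G proteins switch on, was 4.12-fold lower.

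MAP kinases and their regulators gave 3 higher and 9 lower of 12 listed, of 67 symbols, with a median log2 ratio of -0.79. Of the 11 re-tested, 2 passed as higher and 8 as lower. Genes for feedback inhibitors of the ERK cascade were among the lower ones. DUSP6, the ERK phosphatase, had 17, 17.1 and 20 at PD30 and 46.1, 38.1 and 38.2 at PD45. SPRY2 and SPRY4, the Sprouty inhibitors, were 2.19-fold and 2.37-fold lower at PD30, and the groups overlapped in none of the 3. MAP3K7CL, a gene related to a MAP kinase kinase kinase, was 3.82-fold lower, with 44.6, 45.0 and 44.9 at PD45. RPS6KA2, a ribosomal S6 kinase downstream of ERK, was 2.57-fold higher at PD30, and KSR1, a scaffold of the cascade, was 1.97-fold higher.

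Regulators of the Ras family and the actin skeleton differed in both directions. RRAD, a Ras-related GTPase, was 5.04-fold lower at PD30, while RASSF2, a Ras-binding protein, and FMNL1, a formin that lengthens actin filaments, were 3.30-fold and 4.31-fold higher. All 5 listed genes of the Hippo pathway and its YAP targets, of 37 symbols, were lower at PD30. ANKRD1, a YAP target and stress-responsive nuclear protein, had 0.23, 0.45 and 0.35 at PD30 and 10.2, 6.67 and 4.93 at PD45. ARHGAP29, a GTPase-activating protein, was 2.80-fold lower, TGFB2, which encodes a TGF-beta ligand, 2.61-fold lower, CRIM1, which binds growth factors, 1.67-fold lower, and LATS2, the core kinase of the pathway, 1.54-fold lower. The group ranges were separate in each (limma adjusted p from 4.28e-06 to 0.00015).

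JAK-STAT and interferon response genes were mostly higher at PD30, 16 of 20 listed (of 81 symbols), and 11 of the 13 re-tested passed as higher. The median log2 ratio was 1.45, and 9 of the 20 had a group mean signal of at least 5. SOCS1 and SOCS3, which encode feedback inhibitors of cytokine receptors, were both higher. SOCS3 had 39.1, 39.3 and 38.0 at PD30 and 12.4, 14.1 and 14.5 at PD45, and SOCS1 had 10.9, 18.4 and 16.9 against 3.47, 4.43 and 3.95. PIM1, a kinase gene that STAT proteins switch on, was 3.92-fold higher. TRIM22 and IFI30 of this list were lower at PD30, and 2 of the 13 re-tested passed as lower. Transcription factors of the immediate-early and stress class gave 5 higher and 2 lower of 7 listed, of 47 symbols. CEBPD, a C/EBP factor of the acute-phase response, was 2.39-fold higher at PD30, TRIB3, a pseudokinase induced by amino acid stress, 2.32-fold higher, and DDIT4, an mTOR inhibitor, 2.17-fold higher. BTG2, an antiproliferative p53 target, was 1.85-fold lower and ATF3 1.53-fold lower.

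Developmental transcription factors were 27 higher and 11 lower of 38 listed, of 138 symbols, with a median log2 ratio of 0.96. MSX2, a homeobox factor of the BMP pathway, had 26.2, 23.3 and 25.7 at PD30 and 5.99, 6.86 and 7.09 at PD45. PITX1, a homeobox factor of the hindlimb, and TCF21, a mesenchymal lung and kidney factor, were 2.17-fold and 1.99-fold higher. In these 3 genes, each PD30 library exceeded every PD45 library (limma adjusted p from 5.4e-07 to 2.94e-06).

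In metabolism, the enzymes of serine, one-carbon and folate use stood on the higher side, 15 of 17 listed (of 41 symbols), with a median log2 ratio of 1.49. Of the 15 re-tested, 13 passed as higher and 2 as lower. Beyond serine synthesis itself, ALDH1L2, which oxidises formyl-tetrahydrofolate in mitochondria, had 18.8, 18.1 and 18.7 at PD30 and 2.67, 3.01 and 4.29 at PD45. SHMT2 and MTHFD2, the mitochondrial enzymes that pass the serine carbon to folate, were 1.87-fold and 1.92-fold higher. CBS, which joins serine and homocysteine on the way to cysteine, had 63.1, 55.2 and 60.5 at PD30 and 16.7, 15.4 and 23.3 at PD45. ALDH1L2 was 5.57-fold and CBS 3.23-fold higher, with no overlap between groups (limma adjusted p = 1.07e-06 and 4.91e-06). The list includes TYMS, which makes thymidylate for dividing cells. The 2 lower members were SLC46A1, the proton-coupled folate transporter, and FOLR3, a folate receptor from a family of close copies.

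Genes of amino acid synthesis, breakdown and transport were 15 higher and 5 lower of 20 listed, of 94 symbols, with a median log2 ratio of 0.82. The list also holds VLDLR, a lipoprotein receptor that is no amino acid gene, and without it 14 were higher and 5 lower of 19, with a median of 0.81. ASNS, asparagine synthetase, had 54.7, 52.5 and 59.3 at PD30 and 12.6, 13.3 and 17.3 at PD45, a 3.86-fold difference (limma adjusted p = 7.79e-07). The carriers SLC6A9, for glycine, and SLC1A5, for glutamine and neutral amino acids, were 3.89-fold and 2.02-fold higher at PD30. SLC3A2, the heavy chain shared by several exchangers, was 1.78-fold higher, with 204, 191 and 185 at PD30 against 111, 105 and 110 at PD45. MAOA, which oxidises monoamines, was 2.65-fold lower. The stretch upstream of ASNS is shown because it holds the amino acid response motif TGATGNAA, known to bind C/EBP and ATF factors, in capitals. It is chr7:97872439-97872506 (minus strand) of RefSeq's GRCh38.p14, before the first listed gene start, and 60 bases lie between the motif and that start.

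ASNS: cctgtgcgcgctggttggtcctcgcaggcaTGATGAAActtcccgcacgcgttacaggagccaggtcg

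Among the 250 bases upstream of each gene, searched on both strands, TGATGNAA occurred in 1 of 18 genes of the amino acid list with a RefSeq promoter (VLDLR included), which was ASNS, in 0 of 12 serine and one-carbon genes, and in 3.19% of all 27305 promoters. A match is a description of letters, and its absence here says nothing of binding elsewhere.

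Glucose handling gave 4 higher and 5 lower of 9 listed, of 75 symbols. PCK2, the mitochondrial PEP carboxykinase, had 34.4, 35.4 and 34.7 at PD30 and 4.90, 7.04 and 7.07 at PD45 (5.50-fold higher at PD30; limma adjusted p = 4.72e-07). PGD, of the pentose phosphate pathway, was 1.51-fold higher, while SLC2A6, a glucose transporter family member, and ENO2, an enolase, were 2.49-fold and 2.01-fold lower. Only 5 of 61 symbols of the tricarboxylic acid cycle and mitochondrial carriers were listed, so most of that core is not described by these data.

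Lipid genes included several that were low at PD30. Of the genes for fatty acid synthesis, oxidation, uptake and storage, 6 were higher and 11 lower of 17 listed, of 97 symbols, with a median log2 ratio of -0.71. FABP4, a fatty acid-binding protein known from adipocytes, had 19.9, 23.6 and 25.6 at PD30 and 90.5, 92.5 and 88.9 at PD45, and FABP3 had 2.45, 2.68 and 4.02 against 25.7, 24.8 and 17.3. CD36, a fatty acid receptor and scavenger, had 1.11, 0.85 and 0.74 at PD30 and 9.24, 6.51 and 7.73 at PD45. The PD45 libraries of these 3 genes were 3.94-fold, 7.41-fold and 8.70-fold above the PD30 ones in the mean (limma adjusted p = 2.53e-07, 2.07e-06 and 1.34e-06). Phospholipid and eicosanoid enzymes were 9 higher and 11 lower of 20 listed, of 89 symbols, and 7 passed the re-test in each direction. PTGES, the prostaglandin E synthase, was 2.82-fold higher at PD30, and PLPP3, which dephosphorylates lysophosphatidic acid, was 2.11-fold higher.

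Glutathione, redox and xenobiotic genes were 17 higher and 10 lower of 27 listed, of 121 symbols, with a median log2 ratio of 0.71. MT2A, a metal-binding metallothionein, had 9303, 9264 and 9872 at PD30 and 5395, 4540 and 4431 at PD45. HMOX1, heme oxygenase 1, was 2.37-fold higher, CRABP2, which carries retinoic acid, 2.89-fold higher, and AKR1C1, an aldo-keto reductase of a near-identical family, 2.90-fold higher. In each of the 4, all PD30 libraries lay above all PD45 libraries.

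All 13 listed lysosomal genes, of 84 symbols, were lower at PD30. All 13 passed the re-test, as 97.3% of all re-tested genes did, and 45.3% of all re-tested genes passed as lower. The median log2 ratio was -0.80. PSAP, the precursor of the saposins that help break down sphingolipids, had 650, 601 and 640 at PD30 and 1322, 1355 and 1120 at PD45. NPC2, which takes cholesterol out of the lysosome, had 301, 290 and 279 against 553, 553 and 489. CTSD, the protease cathepsin D, had 313, 286 and 319 against 557, 516 and 466. The PD45 means were 2.01, 1.83 and 1.67 times those at PD30 (limma adjusted p = 8.21e-06, 7.11e-06 and 3.53e-05). FUCA1, the fucosidase, was 2.65-fold lower. GPNMB, a glycoprotein of lysosomes and melanosomes, had the largest ratio in the list, 4.69-fold, with 1.80, 1.85 and 1.70 at PD30 and 10.9, 8.35 and 5.86 at PD45. The stretch upstream of CTSD, chr11:1763939-1764004 (minus strand, RefSeq GRCh38.p14), is shown because it holds CACGTG (in capitals), the E-box core of the motif through which TFEB acts on lysosomal genes.

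CTSD: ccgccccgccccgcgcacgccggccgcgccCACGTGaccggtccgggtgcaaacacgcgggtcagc

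The motif ends 41 bases before the gene start. CACGTG, which reads the same on both strands, occurred in the 250 bases upstream of 1 of the 9 lysosomal genes with a RefSeq promoter and in 6.49% of all 27305 promoters.

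**Figure D4:**
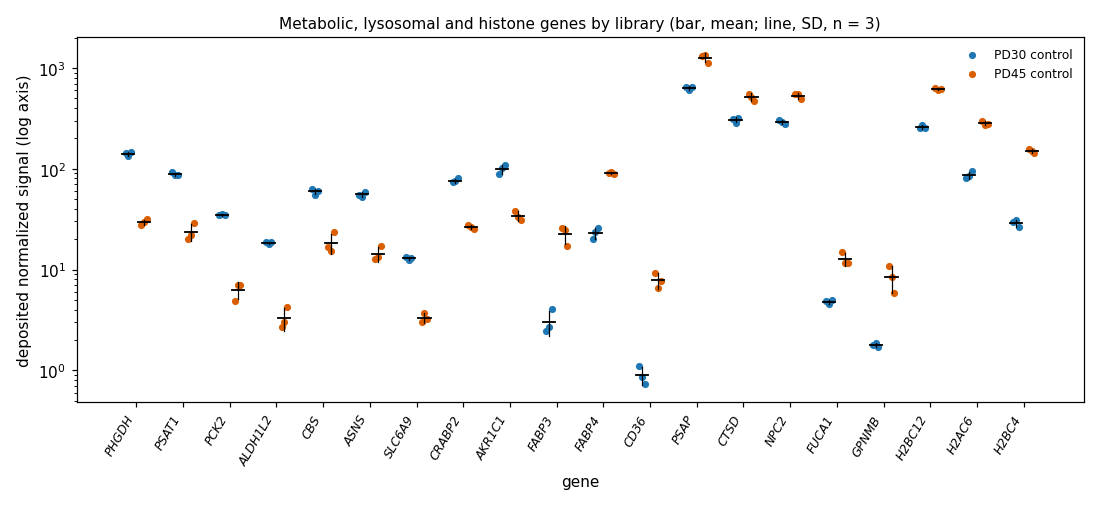
Deposited normalized signal (vertical log axis) of 20 metabolic, lysosomal and histone genes in each library, blue for the PD30 control and orange for the PD45 control, with means as bars and SD as lines (n = 3 libraries a group). The first 9 genes, from PHGDH to AKR1C1, are higher at PD30, and the other 11, from FABP3 to H2BC4, are lower.

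Contractile and actin-binding genes were 6 higher and 16 lower of 22 listed, of 67 symbols. ACTA2, smooth muscle actin, had 173, 145 and 183 at PD30 and 321, 293 and 271 at PD45, and CNN1, calponin, and CALD1, caldesmon, were 1.71-fold and 1.99-fold lower. PPP1R14A, which inhibits myosin phosphatase, had 16.4, 19.0 and 18.8 at PD30 and 1.54, 2.21 and 1.54 at PD45, and MYOCD, the smooth muscle coactivator myocardin, had 4.02, 5.54 and 5.56 against 0.89, 0.66 and 1.04. Those 2 genes were 10.2-fold and 5.84-fold higher at PD30 (limma adjusted p = 2.39e-07 and 6.96e-06). The actin-binding genes TAGLN2, a transgelin, and TPM4, a tropomyosin, were also higher, by 1.96-fold and 1.62-fold.

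All 7 listed keratin genes, of 68 symbols, were lower at PD30. KRT19 had 32.5, 29.1 and 32.8 at PD30 and 123, 148 and 134 at PD45. KRT8 and KRT18, which pair in simple epithelia, were 1.94-fold and 1.64-fold lower, and KRT17, which has near-identical copies, was 5.47-fold lower. These belong to the markers of other cell types checked here. Of 18 epithelial markers, 5 were listed, all keratins, with a summed signal of 54.5 to 59.7 in the PD30 libraries and 177 to 201 in the PD45 libraries. EPCAM, CDH1 and the other 11 epithelial markers are not in the table. Of the smooth muscle and pericyte markers, 1 was higher and 4 lower of 12, with sums of 234 to 289 at PD30 and 441 to 489 at PD45. Of 11 endothelial markers, TEK and TIE1 were higher and EGFL7 lower, with sums of 60.7 to 64.4 and 61.6 to 70.1. Of 14 leukocyte markers, HCLS1 alone was listed, at 0.25 to 0.29 at PD30 and 7.44 to 7.92 at PD45. Neural markers were 3 higher and 1 lower of 12, with sums of at most 2.91 in any library. Of 12 fibroblast markers, COL3A1, COL6A3, VIM and PDGFRA were higher at PD30, and S100A4 was lower, at 94.2 ± 10.8 against 448 ± 27.3. The part that a change in the mix of cells has in these results was not tested, and in bulk RNA fewer cells of a type and less RNA per cell cannot be told apart.

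Histone genes were mostly lower at PD30, 14 of 17 listed, of 93 symbols, with a median log2 ratio of -1.70. H2BC4, which encodes an H2B, had 29.3, 30.9 and 26.2 at PD30 and 157, 151 and 143 at PD45, and H2AC6, which encodes an H2A, had 80.4, 85.7 and 94.1 against 297, 271 and 279. H2BC12 was 2.38-fold and H4C8 4.87-fold lower. All have near-identical copies among the histone clusters, so the split of reads between genes is uncertain. Transcripts of replication-dependent histones normally end in a stem-loop instead of a poly(A) tail. The loops of listed genes are shown because they mark genes whose annotated transcripts hold this loop. Capitals mark the paired arms, and the sequences come from GENCODE 29 transcripts.

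H2AC6: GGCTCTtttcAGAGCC

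H2BC4: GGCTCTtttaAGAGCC

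H4C8: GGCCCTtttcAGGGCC

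H4C15: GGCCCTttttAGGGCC

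The 2 H4 genes share their arms, and so do the H2A and H2B genes shown. Of 15 listed histone genes with a protein-coding transcript, 9 held such a loop, 1 of them higher and 8 lower at PD30, and 54 of 19684 protein-coding genes (0.274%) held a match to the same pattern. For 7 of these 9, the annotation has a transcript that runs more than 100 bases past the loop, as in H2AC6, where 1114 bases follow. Among these 7, only H4C8 also has a transcript that ends close to the loop, 18 bases after it. Which transcript end the reads came from was not tested. For a gene without a match, the loop is not shown to be absent. The only protein-coding transcripts searched for H2AC7, H2BC12 and H4C12 are 393, 381 and 312 bases long and may be annotated without their full end.

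Because every deposited table uses the same PD45 control, some of these genes can be set beside the other PD45 groups. Those are siSRC2 and siSRC4, read as siRNAs against the kinase gene SRC, and GW8510, a small-molecule kinase inhibitor. In all, 22 genes are in all 4 tables. Each of the other tables also holds only genes that the authors listed against this control. That a treated mean differs from the PD45 control is therefore no result about these genes. The tables share the PD45 control libraries, whose values were identical in all 1171 cases of a gene shared with another table, so the values below are a description only. The 4 genes given were chosen after their values were seen, as examples of different orders, and do not stand for the rest of the 22. In both siRNA tables the title of the authors' mean column names another siRNA than the library columns do, or none by number. The library names were followed, so which siRNA a value belongs to rests on them. FABP4 was at 23.0 ± 2.89 at PD30, 90.6 ± 1.80 in the PD45 control, 39.0 ± 5.25 with GW8510, 29.2 ± 2.11 with siSRC4 and 61.7 ± 7.75 with siSRC2. IL7R was at 15.5 ± 1.91, 37.6 ± 3.86, 21.9 ± 1.82, 17.2 ± 2.90 and 24.3 ± 0.930 in the same order. For both genes, all 3 treated PD45 means lay between the PD30 and the PD45 control means. CXCL12 was at 11.5 ± 0.693 at PD30 and 3.16 ± 0.459 in the PD45 control, 0.927 ± 0.205 with GW8510, 5.91 ± 1.47 with siSRC4 and 6.0 ± 0.832 with siSRC2. TRPA1 was at 29.5 ± 2.59, 17.7 ± 3.10, 5.48 ± 2.13, 7.07 ± 1.24 and 28.5 ± 6.41 in that same order. For CXCL12 the GW8510 mean lay below the PD45 control and the siRNA means above it, and for TRPA1 the siSRC2 mean alone lay above it.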

How the data were processed

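RNA sequencing of WI-38 libraries was processed by the authors with CASAVA, HISAT2, StringTie, RSEM, DESeq2 and edgeR, per the submitters' processing notes, which give no roles. They name the mouse build GRCm38 although all identifiers are human, so no coordinates come from the tables. Per the file headers, the authors' deposited table gives each gene a normalized expression signal in each library, a fold ratio, a log2 fold change, a p-value and an adjusted p-value. Whether the signal is TPM or FPKM is not given in the sources used here. Depth is unknown, so no counting interval is given.

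Means, SD and ratios were computed with Python 3.11.15 and pandas 2.3.3. Signals plus a pseudocount of 1 were log2-transformed and fitted by limma 3.58.1 (R 4.3.3), whose mean-variance trend was switched on, with Benjamini-Hochberg adjustment over the 2258 genes re-tested. This scale understates changes at low signal. Tested on simulated data for this comparison with 2258 genes, the fit recovered 92.5% of genes changed 2-fold. That share describes the simulated setting only. How well the fit recovers changes among the listed genes, which the authors had all selected as changed, was not tested. Every adjusted p given above for a gene or for the re-test is limma's, and those of the selection are the authors'. An exact permutation test of 3 against 3 libraries cannot go below 0.1.

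The members and lists were chosen with earlier results of these data known. The 57 lists hold 3015 symbols, of which 3005 matched an identifier. The rule for named genes took, in each list, up to 4 in each direction with the largest difference of log2(mean signal + 1) among those with a group mean of at least 5 and separate groups (all where 5 or fewer are listed). Over the whole table, it added the 15 in each direction with the largest difference, the 10 with the highest mean and the 5 nearest the authors' fold threshold. This gave 376 genes. Of 369 re-tested, 367 passed (adjusted p up to 0.0465), and PTCH1 and SLC25A40 did not. PLAT, GREM1, PVR, JAG1, NOTCH1, NOTCH4, SHMT2, MTHFD2, TYMS, SLC46A1, TCF21, CTSD, H2BC12, H2AC6, H4C15, TAGLN2 and H3C3 were named after their values were seen. Some genes that the rule took are not reported here. Upstream sequences and motif shares use RefSeq promoters of GRCh38.p14 (first entry per symbol), and histone transcripts are from GENCODE 29.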

Additional observations from a re-analysis of the deposited data

How the results depend on the processing

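The count of listed genes that passed the re-test was 2197, with 1175 higher and 1022 lower at PD30. It stayed within 1.5 times that count with a pseudocount of 0.1 (2186), no filter on signal (2702), no mean-variance trend (2192), scaling to the authors' fold changes (2202) and an adjusted p under 0.01 (2039). With a mean signal of at least 5, which leaves 1346 genes to test, 1329 passed, 649 higher and 680 lower, so that more were lower than higher. Leaving out one library at a time gave 2136 to 2167 passing genes, 1140 to 1163 higher and 992 to 1017 lower. Same-numbered libraries of the 2 groups did not deviate together (correlations of 0.0102, -0.0316 and -0.112 across genes). Differently numbered libraries gave -0.0714 to 0.0939. No pairing by number showed in these values, which cannot show that the samples are unpaired. A fit with the replicate block called 2198 genes, 1177 higher and 1021 lower.

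Among the genes named by the rule, ALMS1, H4C12 and ABCB6 lost their call under some alternatives, PTCH1 and SLC25A40 gained one, and no direction changed. The median log2 ratio of a gene list changed sign in 11 of 55 lists when only members with a group mean of at least 5 were kept, and in 2 of 56 lists with the authors' deposited log2 fold change. These include the lists of WNT ligands, non-collagen matrix proteins, cytokine receptors, phospholipid enzymes and clustered protocadherins. Unknown depth limits the precision of the genes with low signal: 415 listed genes had no group mean of at least 1.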

Other observations

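Listed genes that code for no protein were also divided. Of 101 lincRNA genes, 51 were higher and 50 lower at PD30, and of 94 genes annotated as antisense, 61 were higher and 33 lower. Strand use in the authors' counting is not given in the sources used here, so reads from an antisense gene and its partner cannot be told apart. The clustered protocadherin genes, which code for neuronal recognition proteins and share much sequence, were 9 higher and 5 lower of 14 listed, of 52 symbols. Of the 8 re-tested, 3 passed as higher and 5 as lower, and the median log2 ratio of 1.09 turned to -0.67 over the 7 with a group mean of at least 5. In the JAK-STAT and interferon list, the 3 listed genes with the lowest signals, IFI44L, MX2 and JAK3, chosen after their values were seen, had PD30 means of 0.453, 0.42 and 0.19 and PD45 means of 0.03, 0.0667 and 0.67, and they were not re-tested. H3C3, an H3 histone gene with near-identical copies, was listed at 0 in all 3 PD45 libraries and at a mean of 1.11 at PD30, and no fold is given.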
